A study of Rattus norvegicus with 2 samples.

Results

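The respiratory chain of the inner mitochondrial membrane was examined in rat C6 glioma cells, through the nuclear genes for complexes I to V. Members were the probe sets whose only gene symbol in the array's annotation begins with Nduf, Sdha, Sdhb, Sdhc, Sdhd, Uqcr, Cox followed by a number, or Atp5. The rule found 116 probe sets for 110 genes, out of 18166 genes with a symbol of their own on the array. By symbol prefix, 49 genes belonged to complex I, 7 to complex II, 9 to complex III, 25 to complex IV and 20 to complex V.

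The groups were cells treated with small molecules (labelled SMiG) and undifferentiated C6 cells, with 1 array each. C6 is an established rat glioma line, and both cultures were grown in DMEM with fetal bovine serum and antibiotics. The labels disagree on the treatment: those of the SMiG sample name forskolin, rapamycin and I-BET151, whereas the protocol text, which both samples carry, names CHIR99021 at 20 µM with forskolin at 100 µM over 35 days. Forskolin activates adenylyl cyclase, rapamycin inhibits mTORC1, I-BET151 inhibits BET bromodomain proteins and CHIR99021 inhibits GSK3. The labels state neither how many cultures were pooled nor whether the line was recloned. Each group had 1 array, so there was no replicate error, differences could not be checked against replicates, and p-values are left out. Precision is limited by the number of arrays.

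Complex I takes electrons from NADH and complex II from succinate, both pass them to coenzyme Q, complex III passes them on to cytochrome c, and complex IV gives them to oxygen. Complexes I, III and IV pump protons, and complex V, the ATP synthase, uses the gradient to make ATP. The catalytic and redox-active subunits are surrounded by many small accessory subunits, and assembly factors build the complexes without staying in them. Gliomas often draw much of their energy from glycolysis, while keeping respiration active.

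Values are log2 expression per gene, averaged over its probe sets, and differences are SMiG minus C6. A gene counted as detected when at least 1 array lay above the 95th percentile of 1343 olfactory and vomeronasal receptor genes, taken as silent, which was 4.96 for SMiG and 4.84 for C6. Of the 110 members, 97 were detected, among 10932 detected genes in all. In 93 of them both arrays lay above the floor, in 2 SMiG alone and in 2 C6 alone. The differences of the receptor genes had an SD of 0.32, a technical scale that holds no variation between cultures. The glial and progenitor markers Vim (12.74 in SMiG, 12.74 in C6), Nes (8.59 in SMiG, 8.74 in C6) and S100b (10.87 in SMiG, 9.67 in C6) were high on both arrays. So were the progenitor markers Sox2 (9.81 in SMiG, 8.65 in C6) and Cspg4 (9.12 in SMiG, 8.70 in C6), with Olig2 lower (5.43 in SMiG, 5.08 in C6). The astrocyte marker Gfap was detected at 5.48 in SMiG and 6.05 in C6, and the myelin genes Mbp (4.996 in SMiG, 4.72 in C6) and Mog (4.96 in SMiG, 4.48 in C6) passed the floor through SMiG alone. The astrocyte markers Aqp4 and Slc1a3, the neuronal marker Tubb3, the endothelial marker Cdh5 and the microglial markers Cx3cr1 and Aif1 were not detected. The microglial marker P2ry12 stood at 5.32 in SMiG and 4.46 in C6, and the neuronal markers Snap25 at 6.17 in SMiG and 5.65 in C6 and Rbfox3 at 4.94 in SMiG and 5.12 in C6. Their part in the results was not tested.

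Respiratory chain genes differed little between the arrays as a group, and their differences had a smaller SD than those of detected genes at large. The members' median difference was 0.09, against −0.01 for all detected genes, with SDs of 0.42 for the members and 0.66 for all detected genes. The quartiles were closer in width, at −0.21 and 0.35 for the members and −0.35 and 0.29 for all detected genes. The SD of all detected genes includes extremes of −5.60 and 6.19. Ndufb10 and Ndufa1, both encoding accessory subunits of complex I, were at least 2-fold higher in SMiG, which makes 2.06% of detected members beside 3.19% of all detected genes. The assembly factor gene Ndufaf5 was the only member at least 2-fold lower, 1.03% of detected members beside 6.51% of all detected genes. At 1.5-fold, 11 members were higher (11.3%, beside 10.4% of all detected genes) and 4 were lower (4.12%, beside 15.1%). A positive difference was found in 56 of the 97 detected members, or 57.7%, beside 48.9% of all detected genes. In such bulk RNA, fewer expressing cells and less RNA per cell cannot be told apart.

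The upstream sequences of the 3 members past 2-fold are shown because these genes carry the largest differences of the set. Each line gives 200 bases up to the RefSeq transcription start, 5′ to 3′ on the gene's own strand, in the GRCr8 assembly. They lie at chr10:14255967-14256166, minus strand for Ndufb10, at chrX:121293556-121293755, minus strand for Ndufa1 and at chr3:147961412-147961611, plus strand for Ndufaf5. Capitals mark matches to motifs of nuclear factors known to act on respiratory genes, searched on both strands.
Ndufb10: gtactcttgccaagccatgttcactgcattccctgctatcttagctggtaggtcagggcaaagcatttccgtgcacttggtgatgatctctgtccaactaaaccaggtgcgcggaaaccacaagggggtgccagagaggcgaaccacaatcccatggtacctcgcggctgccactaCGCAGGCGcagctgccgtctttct
Ndufa1: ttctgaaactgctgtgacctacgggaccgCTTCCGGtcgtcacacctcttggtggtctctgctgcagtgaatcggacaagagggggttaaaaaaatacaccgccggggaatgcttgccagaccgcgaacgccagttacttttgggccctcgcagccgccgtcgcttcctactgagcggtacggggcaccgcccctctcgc
Ndufaf5: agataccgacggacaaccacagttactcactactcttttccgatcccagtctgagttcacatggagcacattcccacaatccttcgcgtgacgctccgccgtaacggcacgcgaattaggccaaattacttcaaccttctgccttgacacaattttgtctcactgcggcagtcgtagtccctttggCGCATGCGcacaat

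The motifs were CGCANGCG for nuclear respiratory factor 1 (NRF1), CCGGAAG for GA-binding protein (GABP), AAGATGGC for YY1 and TCAAGGTCA for the estrogen-related receptors. The capitals upstream of Ndufb10 and Ndufaf5 match the NRF1 motif, and those upstream of Ndufa1 match the GABP motif on the opposite strand. The search used a window of 300 bases, from 250 before the start to 50 after it, and such a window was given for 83 of the 93 members that are neither copies nor pseudogenes. Of these 83 windows, 27 (32.5%) held the NRF1 motif, beside 10.5% of 18999 windows of protein-coding genes. The GABP motif was in 26 member windows (31.3%, beside 11.2%), the YY1 motif in 17 (20.5%, beside 3.92%) and the receptor motif in 2 (2.41%, beside 0.353%). The NRF1 motif thus occurs both in the member with the highest difference and in the member with the lowest. The 18999 windows were not limited to genes detected here, whereas most members were detected, and no share over detected genes is given. Whether members differ from other expressed genes in these motifs was not tested. A match is a description of the letters and does not show binding.

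Complexes III, V and IV had positive medians, and those of complexes I and II lay near 0. The median difference was 0.30 over 8 detected genes of complex III, 0.19 over 18 of complex V and 0.16 over 19 of complex IV. For complex I it was −0.02 over 45 genes and for complex II −0.03 over 7. Positive differences numbered 6 of 8 in complex III (75%), 12 of 18 in complex V (66.7%) and 13 of 19 in complex IV (68.4%). In complex I they numbered 22 of 45 (48.9%) and in complex II 3 of 7 (42.9%), beside 48.9% of all detected genes. The complexes differ in make-up, since complexes I and IV each include 8 assembly factors and complex III none. Without assembly factors and regulators, the medians were 0.03 for complex I and −0.07 for complex II. They were then 0.30 for complex III, 0.24 for complex IV and 0.20 for complex V. The 33 complex I subunits alone had 19 positive (57.6%). All members past 2-fold and 9 of the 15 past 1.5-fold belonged to complex I, which holds 45 of the 97 detected members. Of its 45 genes, 5 (11.1%) were at least 1.5-fold higher, beside 10.4% of all detected genes. Another 4 were at least 1.5-fold lower, beside 15.1% of all detected genes. The differences between complexes were not tested.

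**Figure D1:**
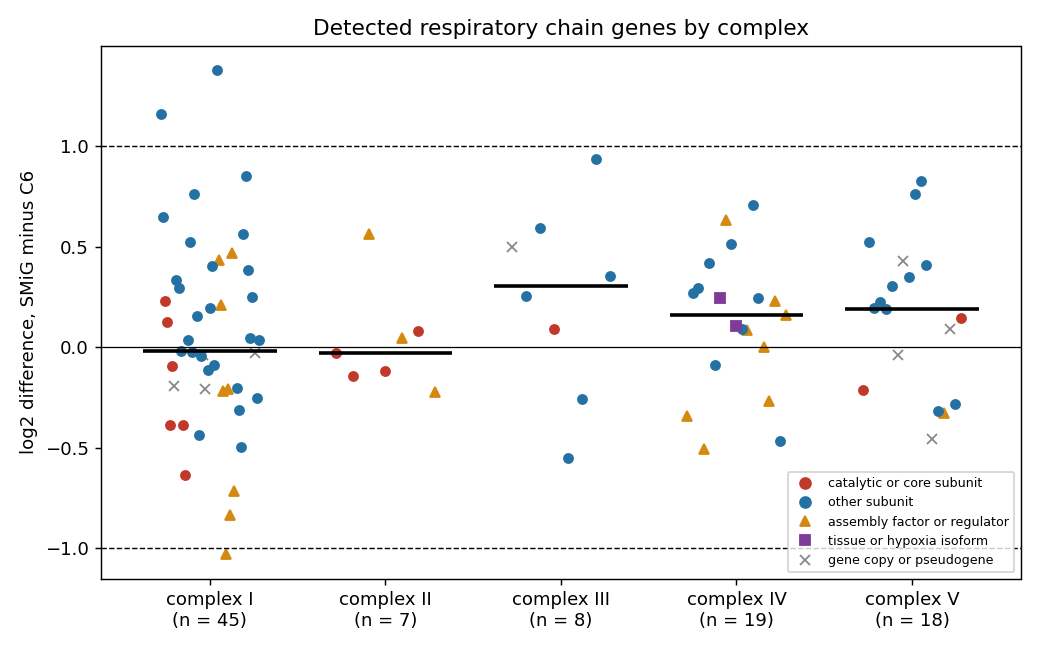
Log2 difference, SMiG minus C6, of the 97 detected respiratory chain genes, with 1 point per gene, complexes I to V on the horizontal axis and symbols for the role of the gene product. Black bars are medians, which run from −0.03 in complex II to 0.30 in complex III, and dashed lines mark 2-fold, which 3 genes of complex I pass.

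Complex I, the NADH dehydrogenase, had an SD of 0.49, beside 0.48 for complex III and 0.66 for all detected genes. Its 33 subunits by symbol, without assembly factors and copies, had an SD of 0.47. Ndufb10, encoding an accessory subunit of the membrane arm, was at 8.26 in SMiG and 6.88 in C6, or 2.60-fold higher. Ndufa1, encoding a small accessory subunit of the membrane arm, was at 7.14 in SMiG and 5.98 in C6, or 2.23-fold higher. Both genes were above the floor on both arrays. Ndufa6, encoding an accessory subunit of the matrix arm, was at 8.24 in SMiG and 7.39 in C6, or 1.80-fold higher. The membrane arm subunit gene Ndufb8 was at 8.36 in SMiG and 7.60 in C6, or 1.70-fold higher. Ndufv3, encoding a small accessory flavoprotein subunit, had a mean difference of 0.65, but its probe sets gave 0.96 and 0.33.

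Complex I had 6 conserved core subunits measured here, which include those that carry its electrons. Of these, 4 had lower values in SMiG and 2 higher (33.3%, beside 48.9% of all detected genes). Ndufs1, encoding the largest iron-sulfur subunit, was at 7.81 in SMiG and 8.44 in C6, or 1.55-fold lower. Ndufs3 was at 6.45 in SMiG and 6.83 in C6, and Ndufs8, which holds iron-sulfur clusters near the quinone site, at 8.07 in SMiG and 8.46 in C6, each −0.39 apart. Ndufs7, which carries the last cluster before coenzyme Q, differed by −0.09 (8.66 in SMiG, 8.75 in C6). The flavin-binding subunit gene Ndufv1 was at 7.999 in SMiG and 7.87 in C6, and Ndufv2 at 9.50 in SMiG and 9.27 in C6, with differences of 0.12 and 0.23. These 6 genes had a median of −0.24, beside 0.15 for the 27 other complex I subunits by symbol, among them Ndufa4.

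Among complex I subfamilies, the 7 Ndufs genes had a median of −0.09 and the 3 Ndufv genes 0.23. The 11 detected Ndufa genes, assigned by symbol and so including Ndufa4, a known subunit of complex IV, had a median of 0.04. The 10 Ndufb genes, whose products lie in the distal membrane arm, had a median of 0.07. Those subfamilies held members on both sides. Below 0 were Ndufa8 at −0.50, Ndufb6 at −0.44, Ndufa9 at −0.32, Ndufa12 at −0.25 and Ndufab1, the mitochondrial acyl carrier protein, at −0.20. Above 0, short of 1.5-fold, were Ndufa7 at 0.56, Ndufc1 at 0.52, Ndufb2 at 0.41, Ndufa5 at 0.38, Ndufs6 at 0.33 and Ndufs5 at 0.29. Ndufb9, Ndufs4, Ndufb5, Ndufc2 and Ndufa11 lay between −0.04 and 0.03. Ndufa2 at 0.25, Ndufb7 at 0.15, Ndufb11 at −0.09 and Ndufb4 at −0.11 lay in between, and Ndufb3 averaged 0.19 over probe sets at 0.37 and 0.02.

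Assembly factors of complex I included its 3 lowest genes. Ndufaf5, encoding an enzyme that modifies Ndufs7 during assembly, was at 5.79 in SMiG and 6.82 in C6, or 2.04-fold lower. Ndufaf3, which acts early in building the quinone-binding part, was at 6.94 in SMiG and 7.77 in C6, or 1.78-fold lower. Ndufaf1, needed for an intermediate of the membrane arm, was at 5.01 in SMiG, just above that array's floor, and 5.73 in C6, or 1.64-fold lower. The other factors were on both sides, with Ndufaf2 at 0.47, Ndufaf8 at 0.44, Ndufaf7 at 0.21 and Ndufaf6 at −0.22. Ndufaf4, the partner of Ndufaf3, was above the floor in C6 alone, at 4.72 in SMiG and 4.93 in C6. Together the 8 factors had a median of −0.21, with 3 positive (37.5%, beside 48.9% of all detected genes) and 5 negative.

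**Figure D2:**
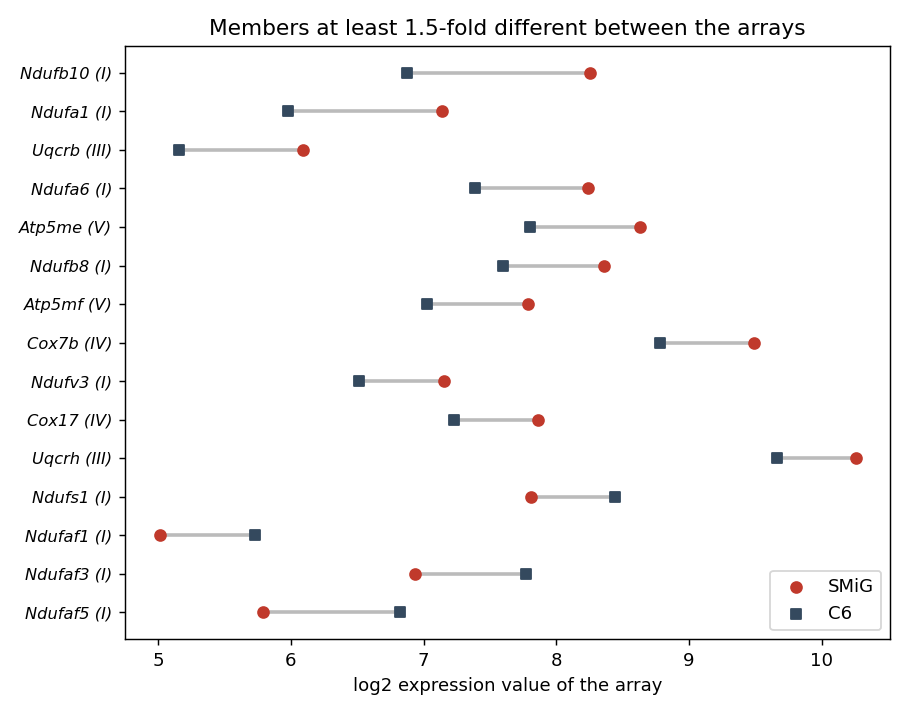
Log2 expression of the 15 members at least 1.5-fold different, SMiG as circles and C6 as squares, with the complex in brackets and genes ordered by difference. In the upper 11 the SMiG point lies to the right, and in Ndufs1, Ndufaf1, Ndufaf3 and Ndufaf5 it lies to the left.

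Complex II, succinate dehydrogenase, is also an enzyme of the citric acid cycle and has no subunit from the mitochondrial genome. The differences of its 4 subunit genes lay between −0.14 and 0.08. The flavoprotein gene Sdha was at 8.93 in SMiG and 8.96 in C6, and the iron-sulfur protein gene Sdhb at 8.61 in SMiG and 8.75 in C6. For the membrane anchors, Sdhc was at 9.02 in SMiG and 9.14 in C6, and Sdhd at 8.63 in SMiG and 8.55 in C6. Of the assembly factors, Sdhaf1, which helps to load iron-sulfur clusters into Sdhb, differed by 0.57 (7.004 in SMiG, 6.44 in C6). Sdhaf2, which helps to attach the flavin to Sdha, was at 8.31 in SMiG and 8.26 in C6. Sdhaf3 was at 5.90 in SMiG and 6.13 in C6. Complex II was the only complex without a gene past 1.5-fold.

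Complex III, the cytochrome bc1 complex, had small subunits above 0 and its large core proteins below. Uqcrb, encoding a small subunit near the quinone site, was at 6.09 in SMiG and 5.16 in C6, or 1.91-fold higher. Uqcrh, the hinge protein that helps cytochrome c to dock, was at 10.26 in SMiG and 9.66 in C6, or 1.51-fold higher. Uqcr11 differed by 0.35 and Uqcrq by 0.25. The core protein genes were lower, Uqcrc2 at 8.996 in SMiG and 9.55 in C6 and Uqcrc1 at 8.73 in SMiG and 8.99 in C6. Uqcrfs1, encoding the Rieske iron-sulfur protein that takes electrons from coenzyme Q, stood at 6.96 in SMiG and 6.87 in C6. The pseudogene Uqcr10-ps1, at 5.53 in SMiG and 5.03 in C6, was the remaining detected member.

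Complex IV, cytochrome c oxidase, has catalytic subunits from the mitochondrial genome, and its nuclear members here are structural subunits, isoforms and assembly factors. Of 9 subunits, 7 had a positive difference (77.8%, beside 48.9% of all detected genes), with a median of 0.27. Cox7b was at 9.49 in SMiG and 8.78 in C6, or 1.63-fold higher, Cox7c at 8.09 in SMiG and 7.57 in C6, and Cox8a at 9.90 in SMiG and 9.48 in C6. Cox4i1, encoding the subunit that binds ATP as a regulator, was at 9.36 in SMiG and 9.27 in C6, and Cox5a at 10.17 in SMiG and 9.87 in C6. Cox6a1 was at 11.34 in SMiG and 11.09 in C6, and Cox6c differed by 0.27. Cox5b, the zinc-binding subunit, was lower, at 8.17 in SMiG and 8.63 in C6. Cox6b1 averaged −0.09, but its brighter probe set gave −0.51 and the other, below the floor on both arrays, gave 0.33.

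Assembly factors of complex IV had a median of 0.04 over 8 genes. Cox17, the copper chaperone of the intermembrane space, was at 7.86 in SMiG and 7.23 in C6, or 1.55-fold higher. The copper-delivery gene Cox11 was at −0.27, and Cox19, which also acts in copper handling, at 0.16. Cox18, which helps to insert a catalytic subunit into the membrane, was at 6.66 in SMiG and 7.17 in C6. Cox10, encoding an enzyme of heme a synthesis, was at 5.04 in SMiG and 5.39 in C6, while Cox15, which acts after it, differed by 0.08. Cox7a2l, which joins complexes III and IV into supercomplexes, was at 8.86 in SMiG and 8.63 in C6. Cox20 had the same value, 8.06, on both arrays, as did 1011 of the 36685 probe sets in the file (2.76%).

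Isoforms of restricted tissues were at or near the floor. Cox8b, of heart and muscle, the testis genes Cox6b2, Cox7b2 and Cox8c, and Ndufa4l2, which hypoxia induces in many cells, were not detected on either array. Their values ran from 2.52 to 4.94 in SMiG and from 2.52 to 4.796 in C6. Cox4i2, the lung and hypoxia isoform of Cox4i1, was above the floor in SMiG alone, at 5.07 in SMiG and 4.83 in C6. Cox6a2, the heart and muscle isoform of Cox6a1, was at 5.56 in SMiG and 5.45 in C6. Ndufa4, named for complex I but known as a subunit of complex IV, was at 10.32 in SMiG and 10.28 in C6.

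Complex V, the ATP synthase, showed higher values in SMiG for most genes of its membrane part and outer stalk. Of 10 such genes 9 had a positive difference (90%, beside 48.9% of all detected genes), with a median of 0.33. Atp5me was at 8.63 in SMiG and 7.80 in C6, or 1.77-fold higher, and Atp5mf at 7.78 in SMiG and 7.02 in C6, or 1.69-fold higher. Both encode small membrane subunits found where synthase dimers meet. Atp5po, which links the outer stalk to the catalytic head, was at 9.10 in SMiG and 8.58 in C6. Atp5mg differed by 0.35, the dimer subunit gene Atp5mk by 0.31, and the stalk genes Atp5pd, Atp5pf and Atp5pb by 0.22, 0.20 and 0.19.

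The rotor ring is made of identical copies of subunit c, which several genes encode. Its genes lay on opposite sides, with Atp5mc3 at 9.35 in SMiG and 8.94 in C6 and Atp5mc1 at 7.89 in SMiG and 8.21 in C6. A probe set shared by Atp5mc2 and Atp5mc2l1, outside the comparisons, differed by −0.11. The F1 genes lay on both sides: the alpha subunit gene Atp5f1a was at 10.47 in SMiG and 10.68 in C6, the beta subunit gene Atp5f1b at 10.97 in SMiG and 10.83 in C6, and Atp5f1d, of the central stalk, at 10.62 in SMiG and 10.90 in C6. A probe set shared by the gamma subunit gene Atp5f1c and Taf3 differed by 0.14. Atp5if1, encoding the inhibitor that stops the enzyme from running backwards, was at 8.92 in SMiG and 9.25 in C6.

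**Figure D3:**
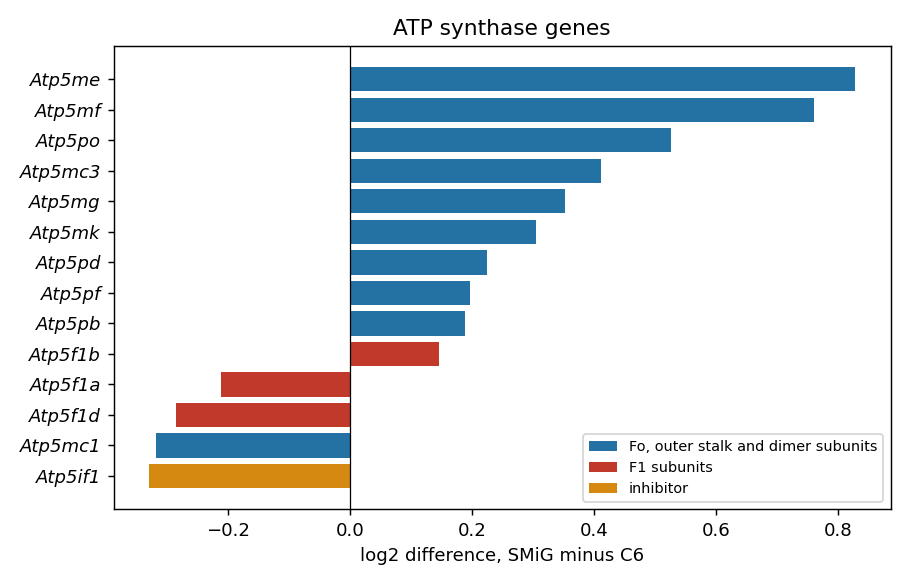
Log2 difference, SMiG minus C6, of the ATP synthase genes, with 1 bar per gene starting at 0 and copies and pseudogenes left out. Bars for 9 of the 10 genes of the membrane part and outer stalk point to higher values in SMiG, up to 0.83 for Atp5me, while Atp5f1a, Atp5f1d, Atp5mc1 and the inhibitor gene Atp5if1 point to lower values.

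Across complexes, the differences were also set out by the role of the gene product, a grouping made after the values were seen. The 53 accessory and structural subunits had a median of 0.25, with 37 positive (69.8%, beside 48.9% of all detected genes) and 10 at least 1.5-fold higher (18.9%, beside 10.4%). The 13 catalytic or core subunits, which are those of complexes I and II above with Uqcrfs1, Atp5f1a and Atp5f1b, had a median of −0.09 with 5 positive (38.5%). Uqcrc1 and Uqcrc2, which hold no redox centre, were counted as structural subunits. The 20 assembly factors and regulators had a median of −0.10 with 9 positive (45.0%). Among these 20 genes Cox17 was past 1.5-fold on the higher side (5%, beside 10.4% of all detected genes). On the lower side 3 of the 20 were past it, beside 15.1% of all detected genes. All of these 86 genes were detected, so the floor chose none of them. The groups overlapped widely, and no test of their difference was made.

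**Figure D4:**
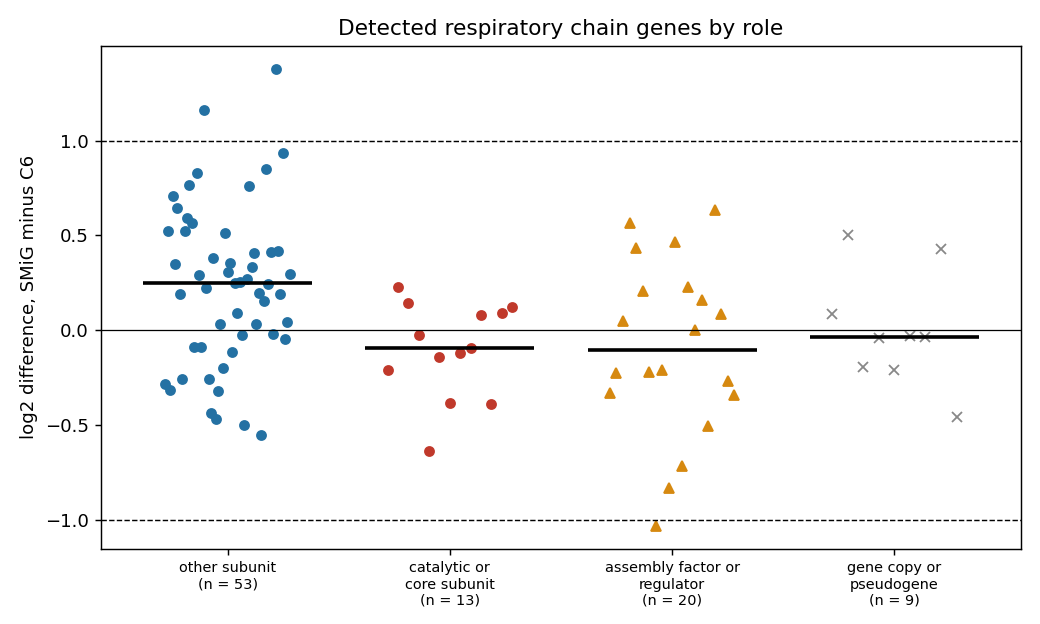
Log2 difference, SMiG minus C6, of detected members by role, with 1 point per gene, medians as black bars and 2-fold as dashed lines. The median of the other subunits is 0.25, that of the catalytic or core subunits −0.09, that of the assembly factors and regulators −0.10 and that of the copies and pseudogenes −0.04.

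Copies and pseudogenes of these genes made up 17 members, of which 9 were detected, with differences from −0.46 for Atp5mc1l1 to 0.50 for Uqcr10-ps1. Atp5mc1l1, the lowest detected gene of complex V, was at 6.09 in SMiG and 6.54 in C6. Their probe sets can share signal with the parent genes, as can the parents' own. Among the others, Ndufs6-ps1 was at 7.54 in SMiG and 7.73 in C6 while Ndufs6 was at 7.14 in SMiG and 6.81 in C6, so the pair lay on opposite sides. Atp5mgl1, above the floor in SMiG alone, was at 5.14 in SMiG and 4.71 in C6, at least 1.23-fold higher. Ndufb4l3 was above the floor in C6 alone, at 4.81 in SMiG and 5.02 in C6. The 5 genes with several probe sets were Atp5mk, Cox5a, Cox6b1, Ndufb3 and Ndufv3, and Cox5a had a pair with identical values on each array.

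Some genes of the chain lie outside the symbol rule. The annotation writes 3 mitochondrially encoded subunits of complex IV in capitals, and the rule was read with its own letter case, so they were not members. They were COX1 at 12.72 in SMiG and 12.79 in C6, COX2 at 11.59 in SMiG and 11.67 in C6, and COX3 at 12.86 in SMiG and 12.91 in C6. Cyc1, the cytochrome c1 subunit of complex III, was at 8.77 in SMiG and 8.78 in C6. In the list of further subunits and electron carriers, 9 genes were detected, with a median of −0.01. Its only gene past 2-fold was Sqor, which passes electrons from sulfide to coenzyme Q, at 6.90 in SMiG and 5.46 in C6. Aifm1, which supports the biogenesis of complex I, was the lowest of that list at −0.67, followed by the glycerol phosphate dehydrogenase gene Gpd2 at −0.44, and Etfb was the second highest at 0.24.

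Assembly factors under other names had a median of −0.01 over 33 detected genes, with 15 positive, 17 negative and none past 2-fold. Higd1a, a hypoxia-inducible protein of complexes III and IV, was the lowest, at 6.71 in SMiG and 7.69 in C6, followed by Lyrm2 at −0.62. Cmc2 at 0.78 and Ttc19, which acts late on complex III, at 0.70 were the highest. Coenzyme Q synthesis had a median of −0.30 over 12 genes with 5 positive and none past 2-fold, with Coq4 at −0.89 and Coq7 at −0.60 the lowest and Coq10a at 0.56 the highest of those above the floor on both arrays. Coq8a was above the floor in SMiG alone, at 5.03 in SMiG and 4.39 in C6, at least 1.14-fold higher. Regulators of mitochondrial gene expression had a median of −0.10 over 22 genes, 9 of them positive. Esrrg, encoding an estrogen-related receptor, was the only one past 2-fold, at 5.04 in SMiG and 6.11 in C6. Next came Tfb1m at −0.74, and the highest were the mitochondrial DNA polymerase gene Polg at 0.84 and Tfam, the packaging and transcription factor of the mitochondrial genome, at 0.42. Nrf1, encoding the factor whose motif is described above, was at 6.95 in SMiG and 7.001 in C6, Gabpa differed by −0.40, and Ppargc1a, a coactivator of mitochondrial genes, was not detected.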

How the data were processed

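RNA was converted to sense cDNA, fragmented and labelled with biotin by terminal transferase for Affymetrix whole-transcript arrays, per the labels' protocols. The table deposited by the authors gives each of 36685 probe sets a value per array. These were taken as log2 expression on a common scale, since the deposited values run from 1.26 to 13.09 and the columns have medians of 4.86 (SMiG) and 4.84 (C6). How the authors corrected background and normalized, and the log base, is not given in the sources used here. No further normalization was applied.

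Of the probe sets, 18511 had 1 gene symbol in the platform annotation, and probe sets of 1 gene were averaged. RefSeq entries of GRCr8 matched 109 of 110 members by gene number (Cox11 kept its annotated name) and gave the promoter sequences, with the first listed window of each gene used. Probe sets with several symbols entered no comparison. Values were compared by difference, count and median, with no test. Every member could be named: both arrays' values are given for the 3 highest and 3 lowest of each complex, core subunits and detected isoforms, and outside genes come from 5 lists, by their extremes. Of these lists, the mitochondrial genome had no symbol match. Members and lists were chosen with earlier results of these data known, and roles and motifs after the symbols and values were seen. Alternatives were other floors, scalings, probe set rules and member definitions. The calculation was tested on simulated data. Python 3.11.15, numpy 2.4.6, pandas 2.3.3, statsmodels 0.14.6 and matplotlib 3.10.9 were used.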

Additional observations from a re-analysis of the deposited data

Results flagged for a closer look

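The probe set annotated to both Uqcrbl1 and Uqcrb was left out of the comparisons because it names several genes. It drew attention because its signal in SMiG was above the floor and higher than in C6, by 1.02 (5.35 in SMiG, 4.32 in C6). The C6 value lay below the floor, so the difference is at least 1.42-fold. The Uqcrb probe set with that symbol alone differed by 0.93. The other shared probe sets of respiratory chain genes ran from −0.26 for Ndufa10 with Ndufa10l1 to 0.69 for Ndufs5-ps2 with Ndufs5. The probe sets shared by Cox7a2 and Cox7a2l2 gave 0.60 and 0.28.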

How the results depend on the processing

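Across the alternatives run, the median difference of all detected members stayed between 0.09 and 0.13, that of complex III between 0.25 and 0.32, that of complex IV between 0.13 and 0.24 and that of complex V between 0.19 and 0.21. The median of all detected genes moved too, from −0.04 with the floor at the 99th percentile to 0.05 with no floor. With no floor the members' median was 0.10, closer to that of all genes than in the main setting. The median of complex I ran from −0.02 to 0.03 and so took both signs, and that of complex II ran from −0.07 to −0.01. The count of members at least 2-fold lower was 1, and became 0 with quantile normalization and 0 without assembly factors and regulators, which removes Ndufaf5. The count at least 1.5-fold lower was 4, and became 3 with the floor at the 99th percentile. Without assembly factors and regulators it became 1, leaving Ndufs1. The count at least 1.5-fold higher was 11, and ran from 10 to 13 across the alternatives. Centring, quantile normalization and removal of a lowess trend were applied to 97 members. Each of the 291 values shifted from the main value by less than the silent genes' SD, with a largest shift of 0.06. Centring takes the same all-gene median, −0.005, from every value, so its shift was fixed beforehand. The 2 columns already had similar medians, and the count is no check on variation between cultures. Of the medians by role, that of the other subunits stayed between 0.25 and 0.27 and that of the catalytic subunits between −0.09 and −0.08. The median of the assembly factors became 0 with the floor at the 99th percentile, and that of the copies and pseudogenes took both signs, from −0.19 to 0.08. Leaving out copies and pseudogenes, and the medians by role, were added after seeing the data. No paired analysis was possible because each group has 1 array. Without replicate arrays, no difference of any size can be told from variation between cultures or hybridisations.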
